A study of Mus musculus with 6 samples.

Results

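Solute carriers and ATP-driven transporters are membrane proteins that move sugars, amino acids, ions, metals, lipids and vitamins across the plasma membrane and the membranes of organelles. Their genes were taken from the deposited table by symbol, as those beginning with Slc and a digit, or with Abca, Abcb, Abcc, Abcd, Abcg, Atp1, Atp2, Aqp, Kcn or Clcn. This gave 66 of the 1420 genes in the table. Of the 66 genes, 52 were solute carriers, 3 were Abca genes, 1 an Abcb gene, 1 an Abcc gene, 2 Abcd genes, 3 aquaporins, 2 potassium channel genes and 2 Clcn genes, and no gene carried an Abcg, Atp1 or Atp2 name. They were sorted by what their protein is known to carry into 9 classes.

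The RNA came from small intestinal organoids, which are closed epithelial structures grown in gel from isolated crypts. The study compared 3 libraries from wild-type organoids (WT) with 3 from organoids lacking Smarcad1 (Smarcad1-KO, here KO), an ATP-dependent chromatin remodeller, to read gene expression in epithelium kept away from microbes and immune cells. All mice were C57BL/6, and all organoids grew in the same medium with EGF, Noggin, R-spondin-1 and N-acetylcysteine before about 600 organoids per condition were collected after 5 days. The growth protocol and the study's methods give a ZP3-Cre deletion, active in the oocyte and so present in all cells of the animal, with littermate controls, whereas the genotype label of the KO samples names Vil-Cre, which is active in the intestinal epithelium. The labels give neither the animals' age nor whether the 3 libraries of a group came from separate mice, so p-values measure only the spread between these libraries. The table holds only genes that had passed the authors' own test on these same libraries. The limma test used here therefore describes the listed genes and is no separate evidence that they changed.

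An absorptive enterocyte takes up nutrients through carriers in its brush border, often together with sodium or protons, and lets them out through a second set of carriers in its basolateral membrane. Carriers in mitochondria, peroxisomes, endosomes and the endoplasmic reticulum supply the organelles. Crypt cells and secretory cells share the carriers that feed growth, such as those for essential amino acids, but have less of the absorptive set.

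The smallest library, KO replicate 1, held 1.24e+07 reads and the largest, WT replicate 2, held 1.57e+07, and a floor of 3 reads corresponded to 0.192 to 0.242 RPM (reads per 1e+06 reads of the library). Smarcad1 itself was measured at 105, 94.7 and 96.3 RPM in WT and at 21.7, 21.3 and 24.03 RPM in KO, with 22.6% of the WT level remaining (log2 change -2.14, SE 0.10, limma adjusted p = 5.59e-05; exact permutation p = 0.1, two-sided, the smallest that 3 against 3 libraries can give). These values are sums over all exons of the gene, and the deletion removes exons 12 to 14 per the study's methods. Cell type markers moved with genotype as well. Enterocyte markers summed to 17188 to 20121 RPM in the WT libraries and to 12462 to 13482 RPM in the KO libraries (7 of 16 listed markers in the table, 6 lower and 1 higher). The 11 of 15 Paneth cell markers in the table were all higher, at 9167 to 10696 RPM in WT and 19507 to 28308 RPM in KO. Goblet markers (3 of 11 in the table) summed to 1749 to 1995 RPM in WT and 2754 to 5054 RPM in KO, enteroendocrine markers (5 of 15) to 641 to 684 and 889.9 to 1511 RPM, stem cell markers (2 of 10) to 203 to 229 and 281 to 315 RPM, and the 1 tuft cell marker of 8 to 15.5 to 26.9 and 10.9 to 12.2 RPM. No marker in the table was at 0 in any library. In these bulk samples fewer cells of a type and less RNA per cell cannot be told apart, and the part of cell makeup in the transporter results was not tested.

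Most transporter genes were lower in KO. All 66 had a limma adjusted p under 0.05, against 99.9% of the listed genes, which follows from how the table was made. Of the 66 genes, 43 (65.2%) were lower, where 47.4% of all listed genes were, and 23 (34.8%) were higher, where 52.5% of all listed genes were. The 3 KO libraries lay wholly below the 3 WT libraries in those 43 genes (47.2% of the table) and wholly above them in the other 23 (51.3% of the table), so no transporter gene had overlapping groups, and 98.5% of the listed genes had none either. Once a trend of the values with transcript length was removed within each library, 27 lower genes (40.9%) stayed past the threshold, a share near the 37.8% of the 1396 listed genes with a length, while all 23 higher genes (34.8%, against 46.5%) stayed past it. The median log2 change was -0.42 over the transporter genes and 0.38 over the whole table. The table's low genes are mostly higher in KO, so the same was counted among genes with a mean of at least 18.5 RPM, the 25th percentile of the table. There 54 transporter genes remained, 39 of them lower (72.2%, against 55.4% of all such genes) and 15 higher (27.8%, against 44.5%), all past the threshold as 99.9% of such genes were. Among these genes the median log2 change was -0.44 over the transporters and -0.35 over all listed genes, so that the medians had the same sign. Complete separation below WT was seen in 55.1% of such listed genes, above WT in 43.3%, and in either direction in 98.4%.

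Large changes were about as common among transporters as elsewhere in the table. A log2 change of at least 1 upward was reached by 11 genes (16.7%, against 19.0% of the table) and downward by 7 (10.6%, against 8.10%), or 18 in either direction (27.3%, against 27.1%). Among genes with a mean of 18.5 RPM or more, 4 genes (7.41%) rose by at least 1, where 6.48% of such listed genes did, and 4 (7.41%) fell by at least 1, where 4.60% did, so that 8 (14.8%) changed by that size against 11.1%. The 4 that fell were Slc5a11, Slc1a3, Slc6a9 and Slc20a1, and the 4 that rose were Slc36a1, Abcc5, Slc5a8 and Slc10a2. On GRCm38, Slc5a11 lies on chromosome 7 (123214780 to 123273253, plus strand), Slc1a3 on chromosome 15 (8634124 to 8710764, minus strand), Slc6a9 on chromosome 4 (117834506 to 117875198, plus strand) and Slc20a1 on chromosome 2 (129198764 to 129211616, plus strand). Slc36a1 lies on chromosome 11 (55204350 to 55236330, plus strand), Abcc5 on chromosome 16 (20331303 to 20426394, minus strand), Slc5a8 on chromosome 10 (88885992 to 88929515, plus strand) and Slc10a2 on chromosome 8 (5083219 to 5105351, minus strand). The median size of the change was 0.61 over the transporter genes and 0.64 over the table. The values in every library are given below for these 8 genes and for the 2 genes of each class with the highest mean RPM. Those of Slc2a1, Slc2a5, Slc7a11, Slc15a2, Slc17a9 and Aqp8, in full or in part, and of the other genes outside this rule were chosen for printing after they had been seen.

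**Figure D1:**
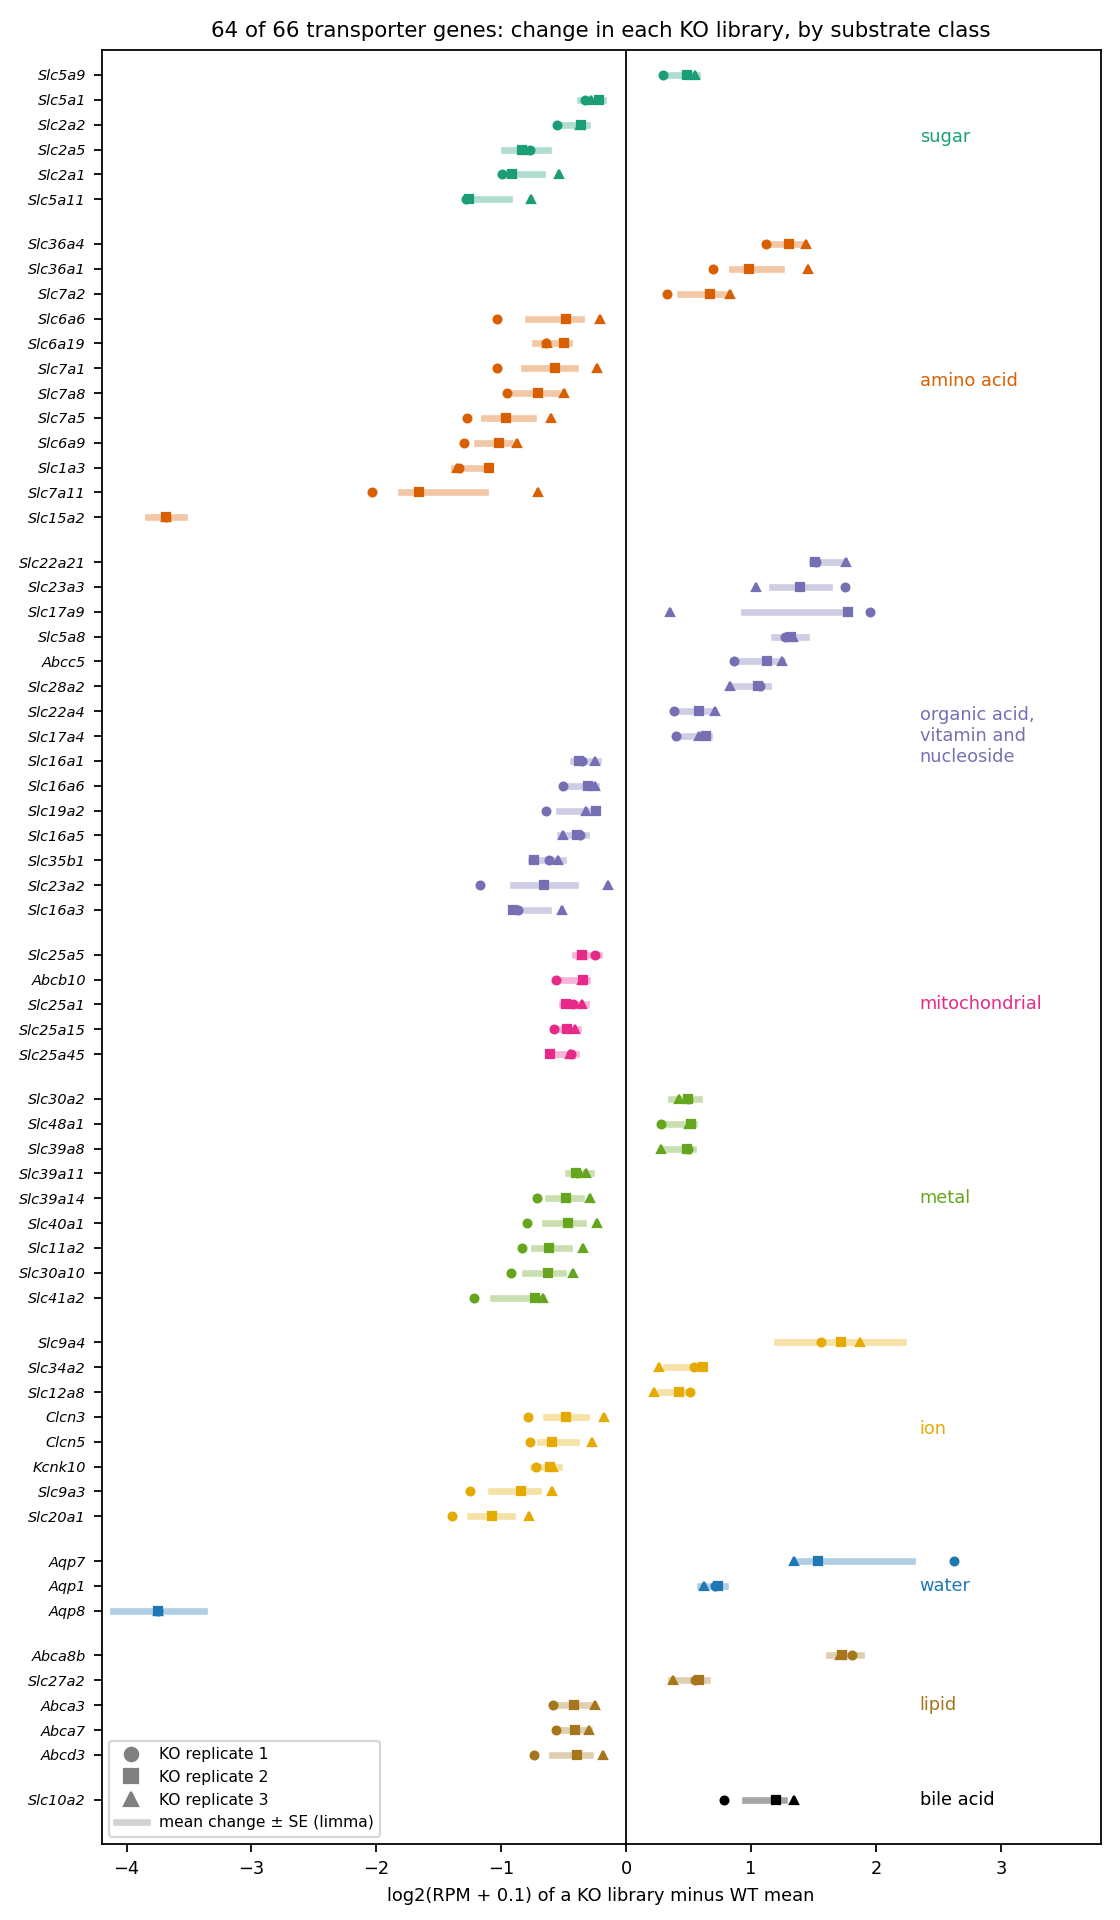
Change of 64 of the 66 transporter genes in each KO library, by substrate class. The horizontal axis is log2(RPM + 0.1) of a KO library minus the WT mean, points are KO replicates 1 to 3 and the pale bar is the mean change ± SE from limma. All 5 mitochondrial genes and 5 of 6 sugar genes lie left of 0, and Slc15a2 and Aqp8, with no read in any KO library, lie farthest left.

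Ranked per kilobase of exon, the most abundant transporter mRNAs in WT were those of Slc25a5, the mitochondrial ADP/ATP exchanger (989 RPM per kb), Slc5a1, the sodium-glucose cotransporter of the brush border (627), Slc25a1, the mitochondrial citrate carrier (351), Slc11a2, the iron importer (129), and Aqp1, a water channel (105). In KO the levels per kilobase were 794, 518, 262, 85.8 and 169, so that Aqp1 stood above Slc11a2.

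**Figure D2:**
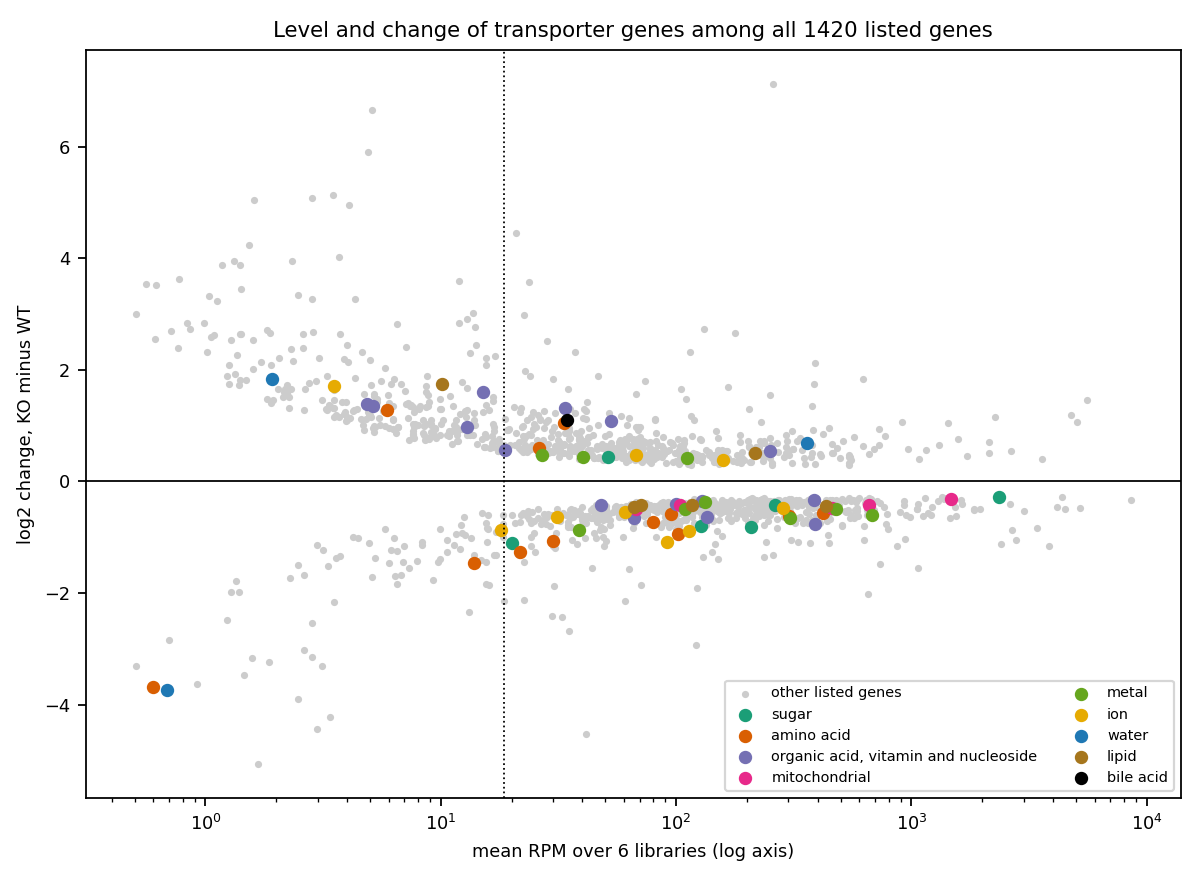
Log2 change (KO minus WT, on the log2(RPM + 0.1) scale) against the mean RPM of 6 libraries on a log axis, with transporter genes coloured by class over all 1420 listed genes in grey and a dotted line at 18.5 RPM. Right of the line lie 39 lower and 15 higher transporter genes, and transporter genes with changes of 1 or more upward lie mostly left of it (7 of 11).

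Sugar carriers were lower in KO in 5 of 6 cases, with a median log2 change of -0.62 and a summed level of 79.0% of WT. Most of that sum was Slc5a1, with a mean of 2574 RPM in WT against 3375 RPM for the class. For comparison with all counts by class, partner list or marker list here, 47.4% of listed genes were lower and 52.5% higher. Among listed genes with a mean of at least 18.5 RPM the shares were 55.4% and 44.5%. None of these counts was tested against these shares. Slc5a1, the main route of glucose from the gut lumen, was measured at 2572, 2609.6 and 2540.2 RPM (WT) and 2048, 2210.4 and 2120.0 RPM (KO). The groups did not overlap, but the step was small (log2 change -0.28, SE 0.09, limma adjusted p = 0.0221), and its limma adjusted p was 0.0579 with the replicate block and 0.154 once a trend with transcript length was removed (log2 change -0.14). Slc2a2, the basolateral exit carrier for glucose and fructose, had 327, 304 and 278 RPM in WT and 206, 235 and 234 RPM in KO, with the 3 KO values all below the lowest WT value (log2 change -0.43, SE 0.11, limma adjusted p = 0.0116). With the length trend removed its log2 change was -0.19 (limma adjusted p = 0.0924). Slc2a5, the fructose carrier of the brush border, showed the same direction at 206, 129 and 154 RPM in WT and 93.7, 89.6 and 91.4 RPM in KO. Its KO libraries lay close together while WT replicate 1 stood above the other WT libraries (log2 change -0.80, SE 0.18, limma adjusted p = 0.00683).

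Slc2a1, a glucose carrier of most growing cells, was at 252, 258 and 283 RPM in WT and 132, 139.7 and 182 RPM in KO. All KO libraries lay below WT, KO replicate 3 being the nearest, and the mean fell to 57.3% of WT (log2 change -0.82, SE 0.15, limma adjusted p = 0.00395). Slc5a11, a sodium-coupled carrier of myo-inositol, had the largest fall of the class. It was measured at 26.9, 26.7 and 28.4 RPM (WT) and 11.2, 11.4 and 16.05 RPM (KO), again with KO replicate 3 nearest to WT but no overlap (log2 change -1.10, SE 0.16, limma adjusted p = 0.00221). Slc5a9, a sodium-coupled carrier of mannose and related sugars, was the exception and rose from WT values of 41.3 to 47.7 RPM to KO values of 53.5 to 63.9 RPM (log2 change 0.45). Enterocyte markers were lower in the same libraries, with the sums given above, and their part in the sugar results was not tested.

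Of 8 genes of fructose and glucose metabolism outside the transporters, 4 were in the table, 3 lower and 1 higher. Tkfc, which acts in the breakdown of fructose, had a log2 change of -0.48, and Hk2, a hexokinase, had -0.69 (-0.45 with the length trend removed). Txnip, which is induced by glucose and restrains glucose uptake, was higher, at 1473, 1822 and 1568 RPM in WT and 2857, 2655 and 2409 RPM in KO (log2 change 0.71, SE 0.13, limma adjusted p = 0.00386). Of 16 brush border enzymes and partners of transporters, 4 were in the table, 1 lower and 3 higher. Lct, the lactase gene, was lower (log2 change -0.54), whereas Pdzk1, a scaffold of brush border carriers, and Car2, a carbonic anhydrase, were among the higher genes, with log2 changes of 0.60 and 1.10. Lct lost the threshold in 5 of the 6 fits that left out a library (limma adjusted p up to 0.0954), with the replicate block (0.0594) and with the length trend removed (log2 change -0.24, limma adjusted p = 0.285), and its log2 change was -0.31 without WT replicate 1. Pdzk1 lost it in 3 such fits (limma adjusted p up to 0.0713).

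**Figure D3:**
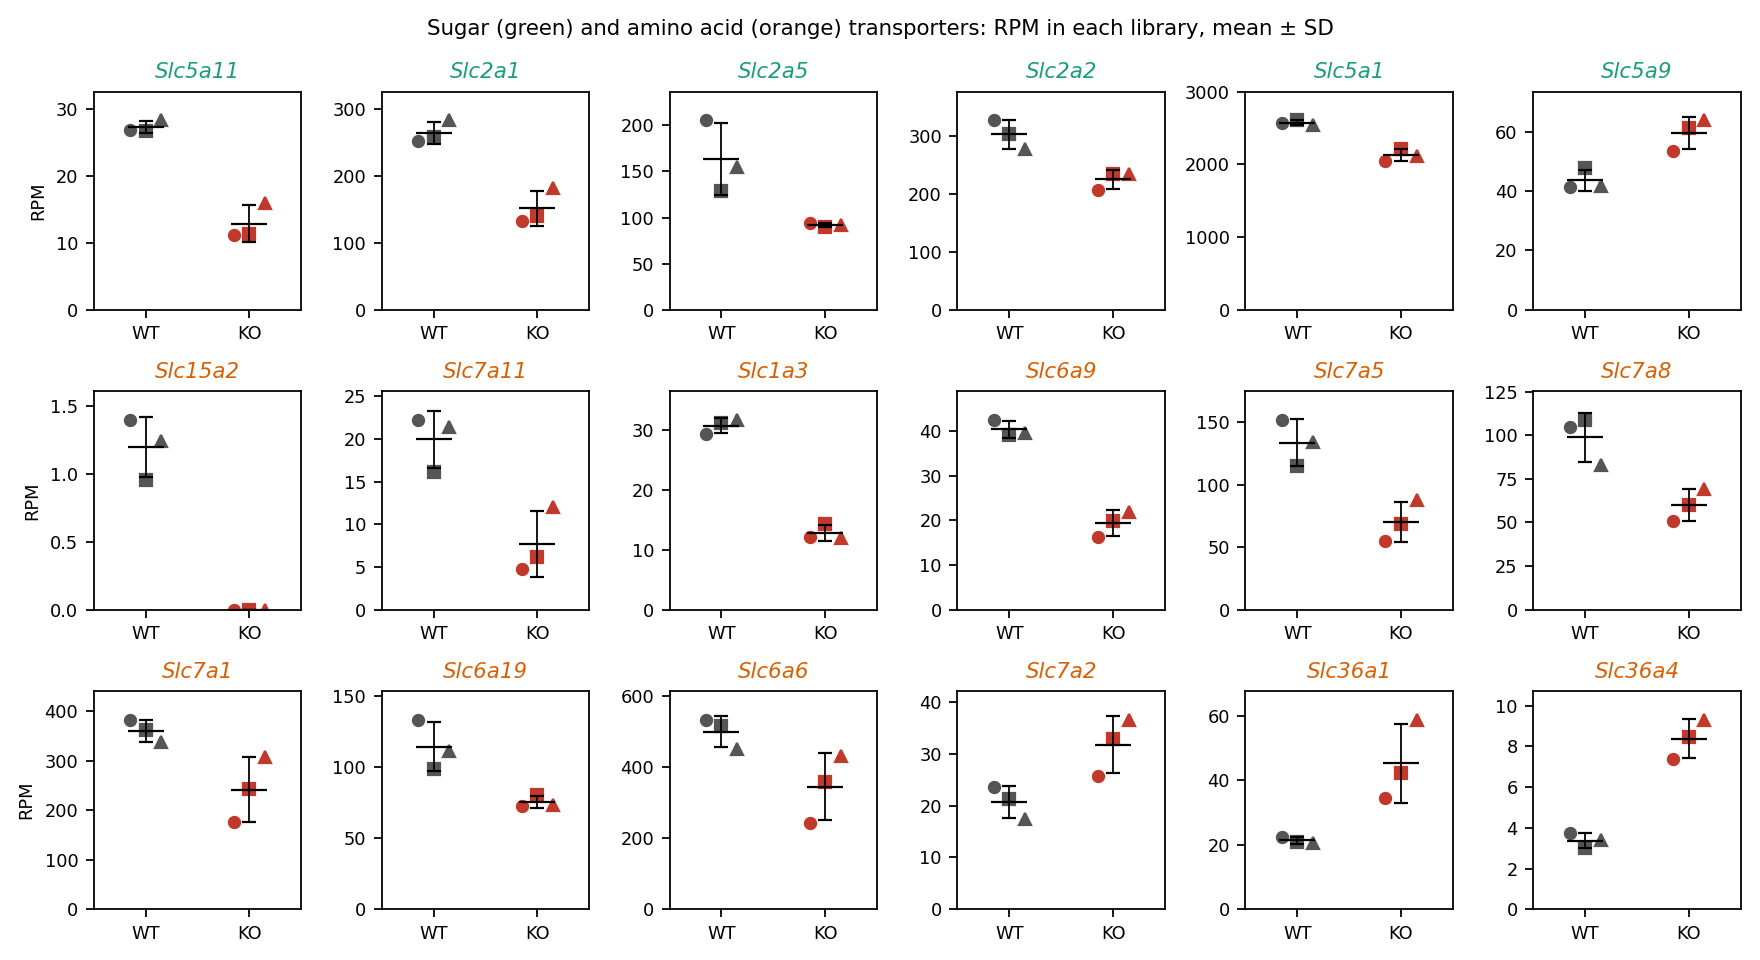
RPM in each WT and KO library for the 6 sugar (green) and 12 amino acid and peptide (orange) carriers, with the mean and SD of 3 libraries and a linear axis from 0 in each panel. In 14 of the 18 panels the 3 KO points lie below the 3 WT points, and in Slc5a9, Slc7a2, Slc36a1 and Slc36a4 they lie above.

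Amino acid and peptide carriers fell in 9 of 12 cases, with a median log2 change of -0.67 and a summed level of 68.1% of WT. Slc6a6 takes up taurine, and Slc7a1 takes up arginine and lysine. Slc6a6 was measured at 534, 515 and 452 RPM (WT) and 244, 357 and 431 RPM (KO), and Slc7a1 at 383, 361 and 338 RPM (WT) and 176, 242 and 307 RPM (KO). In both genes KO replicate 1 was far below WT and KO replicate 3 only just below the lowest WT library. The changes were -0.57 (SE 0.22, limma adjusted p = 0.0346) and -0.61 (SE 0.20, limma adjusted p = 0.0233). Both lost the threshold with the length trend removed (log2 changes -0.28 and -0.25, limma adjusted p = 0.11 and 0.097), as they did without KO replicate 2 or without some WT libraries (highest limma adjusted p 0.0897 for Slc6a6 and 0.0654 for Slc7a1), and Slc6a6 also with the replicate block (0.059). Without KO replicate 1 the log2 changes were -0.35 for Slc6a6 and -0.40 for Slc7a1.

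Slc1a3, a glutamate and aspartate carrier, was measured at 29.4, 31.2 and 31.7 RPM (WT) and 12.1, 14.3 and 11.98 RPM (KO). Its KO libraries lay close together below every WT library (log2 change -1.26, SE 0.11, limma adjusted p = 0.000495). Slc6a9, which carries glycine, had 42.6, 39.1 and 39.7 RPM in WT and 16.3, 19.97 and 22.00 RPM in KO. The groups were again well apart (log2 change -1.06, SE 0.13, limma adjusted p = 0.00151). Slc7a5, the carrier of large neutral amino acids such as leucine, fell to 52.5% of WT, and Slc7a8, its basolateral relative, to 60.7% (log2 changes -0.95 and -0.72). Slc6a19, the main neutral amino acid carrier of the brush border, had a log2 change of -0.59.

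Slc15a2, a proton-coupled carrier of small peptides, was at 1.40, 0.958 and 1.24 RPM in WT and had no read in any KO library, which puts it at least 5.47-fold lower when the mean floor of 3 reads per library stands for KO. At these levels few reads carry the result. The carriers that rose were Slc36a1, its relative Slc36a4, and Slc7a2, a carrier of cationic amino acids. Slc36a1 is a proton-coupled carrier of small neutral amino acids that acts at lysosomes as well as at the cell surface. Slc36a1 had 22.5, 20.9 and 20.7 RPM in WT and 34.6, 42.3 and 58.9 RPM in KO. All KO values lay above WT, and KO replicate 3 was the highest (log2 change 1.05, SE 0.20, limma adjusted p = 0.00451). Slc36a4, at a mean of 3.38 RPM in WT and 8.39 RPM in KO, had a log2 change of 1.29, and Slc7a2 one of 0.61, which was 1.00 with the length trend removed.

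Several of these carriers belong to the amino acid response, in which a shortage of amino acids or stress in the endoplasmic reticulum raises the translation of the transcription factor ATF4, and ATF4 then induces genes for amino acid uptake, synthesis and tRNA charging. Slc7a11, the cystine-glutamate exchanger that supplies cysteine for glutathione, is one of its known targets. It was measured at 22.2, 16.2 and 21.4 RPM (WT) and 4.75, 6.18 and 12.1 RPM (KO). KO replicate 3 stood between KO replicates 1 and 2 and the WT libraries, without overlap (log2 change -1.47, SE 0.34, limma adjusted p = 0.00801).

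Of 13 genes of the amino acid response outside the transporters, 10 were in the table, 9 lower and 1 higher in KO, and 5 of the 9 fell by at least 1 on the log2 scale. All 10 had a mean of at least 18.5 RPM. Among all listed genes at that level 55.4% were lower, and 4.60% were lower by at least 1. The list was chosen with earlier results of these data known, and its counts were not tested against these shares. The largest falls were those of Trib3, which restrains the response (-1.56), Chac1, which breaks down glutathione (-1.44), and Psat1, of serine synthesis (-1.32). Mthfd2 and Shmt2 of mitochondrial folate metabolism changed by -1.12 and -0.67, Asns, asparagine synthetase, by -1.08, Aars, which charges alanine tRNA, by -0.75 (-0.49 with the length trend removed), and Phgdh of serine synthesis by -0.69. Atf4 itself was measured at 545, 460.0 and 542 RPM in WT and 347, 359 and 398 RPM in KO (log2 change -0.48, SE 0.12, limma adjusted p = 0.00896). Its mRNA moved less than that of most genes in the list, and its translation was not measured. Nupr1, which also stands among the Paneth cell markers, was the one gene that was higher (0.37, limma adjusted p = 0.0503 without KO replicate 2). Summed, the 10 genes stood at 2576 to 3094 RPM in WT and at 1555 to 1863 RPM in KO.

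**Figure D4:**
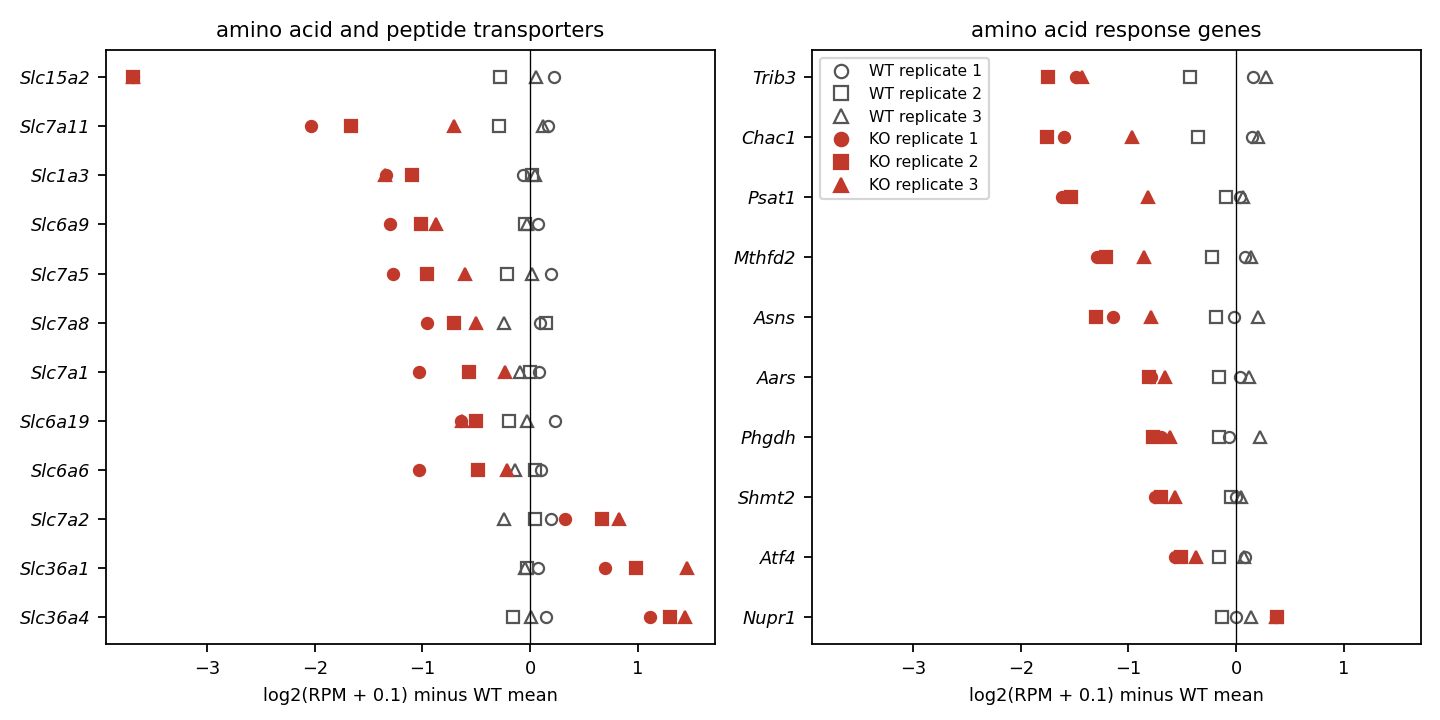
Log2(RPM + 0.1) of each library minus the WT mean for the 12 amino acid and peptide carriers (left) and the 10 amino acid response genes in the table (right), with WT replicates open and KO replicates filled. On the right all KO points lie left of WT except for Nupr1, and on the left KO replicate 1 is the leftmost in most of the lower carriers.

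The start regions of Slc7a11 and of Asns, Chac1 and Trib3 are shown because ATF4 and its partners bind a short composite motif, TGATGNAAN, near the start of many of their targets. Windows of 300 bases (250 before and 50 after the start site, 5′ to 3′ on the gene's own strand, from RefSeq on build GRCm38.p6) were available for 50 of the 66 transporter genes (65 windows, since some genes have more than 1 start site) and were searched on both strands. Matches are in capitals, on the other strand as the reverse complement of the motif.
Slc7a11, chr3:50443564-50443863, minus strand: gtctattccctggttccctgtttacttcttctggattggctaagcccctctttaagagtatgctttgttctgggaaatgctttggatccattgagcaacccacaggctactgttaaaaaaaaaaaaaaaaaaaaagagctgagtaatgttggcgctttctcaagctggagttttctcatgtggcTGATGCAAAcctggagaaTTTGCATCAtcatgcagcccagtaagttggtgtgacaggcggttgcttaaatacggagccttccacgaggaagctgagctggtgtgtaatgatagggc
Asns, chr6:7693160-7693459, minus strand: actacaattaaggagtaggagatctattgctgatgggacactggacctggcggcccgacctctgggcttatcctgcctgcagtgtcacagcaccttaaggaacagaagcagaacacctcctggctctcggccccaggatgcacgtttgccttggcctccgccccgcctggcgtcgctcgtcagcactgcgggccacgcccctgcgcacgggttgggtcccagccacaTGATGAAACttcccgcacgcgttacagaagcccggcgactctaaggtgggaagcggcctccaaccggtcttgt
Chac1, chr2:119350992-119351291, plus strand: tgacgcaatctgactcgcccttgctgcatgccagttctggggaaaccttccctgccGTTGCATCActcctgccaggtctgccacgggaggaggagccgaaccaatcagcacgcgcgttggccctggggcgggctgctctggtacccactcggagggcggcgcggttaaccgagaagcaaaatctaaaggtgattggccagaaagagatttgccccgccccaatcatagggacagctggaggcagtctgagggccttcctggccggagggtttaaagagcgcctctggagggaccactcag
Trib3, chr2:152344011-152344310, minus strand: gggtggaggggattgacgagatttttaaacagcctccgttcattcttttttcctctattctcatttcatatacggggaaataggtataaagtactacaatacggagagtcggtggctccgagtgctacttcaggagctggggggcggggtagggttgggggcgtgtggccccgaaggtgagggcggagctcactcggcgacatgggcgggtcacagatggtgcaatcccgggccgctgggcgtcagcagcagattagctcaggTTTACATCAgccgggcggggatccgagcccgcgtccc

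The Slc7a11 window held 2 matches, 1 on each strand, starting at bases 185 and 203 of the window, both before the start site. Asns had its match at base 228 and Chac1 at base 57, also before the start site, and Trib3 at base 264, within the first transcribed bases. Counted by gene, with a match in any of its windows, the motif was found in 2 of 50 transporter genes, Slc7a11 (lower) and Slc23a3 (higher), and in 4.496% of all 27025 genes with a window. Counted by window, it was in 2 of 65 transporter windows and in 3.95% of all 32851 windows. The other amino acid response genes with a match were Aars and Nupr1, so that 5 of the 17 partner genes with a window held it. Other lower amino acid carriers with a window had no match, which says only that these letters are not in those windows. The antioxidant response motif TGACNNNGC was in 11 of 50 transporter genes (8 of 34 lower and 3 of 16 higher genes) and in 13.99% of all genes, or in 12 of 65 transporter windows and 12.4% of all windows. A match to CAAAGTCCA, a site of the enterocyte factor HNF4, was found in Abcd3 alone among the transporter genes, in 1 of 65 windows, and in 0.475% of all windows, and the longer HNF1 site was in no transporter window and in 3 of all windows. A match is a description of the letters and not evidence of binding.

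Carriers of organic acids, vitamins and nucleosides split, with 8 of 15 higher and 7 lower and a median log2 change of 0.54. This median reversed to -0.35 among the genes with a mean of at least 18.5 RPM, where 4 of the 8 higher and all 7 lower genes remained. Slc16a3, the lactate exporter of glycolytic cells, was measured at 507, 459 and 497 RPM (WT) and 267, 260.5 and 341 RPM (KO). All KO libraries were lower by more than the WT spread (log2 change -0.76, SE 0.13, limma adjusted p = 0.00379). Slc16a1, which moves lactate, butyrate and ketone bodies in either direction, had 421, 403 and 459 RPM in WT and 334, 329 and 359 RPM in KO. The groups did not overlap but the change was small (log2 change -0.33, SE 0.10, limma adjusted p = 0.0189), and it lost the threshold with the length trend removed (log2 change -0.18, limma adjusted p = 0.111). Slc16a5 and Slc16a6 of the same family had log2 changes of -0.42 and -0.35, so that all 4 Slc16 genes in the table were lower. Slc16a6 lost the threshold with the length trend removed (log2 change -0.21, limma adjusted p = 0.054) and in 3 of the 6 fits that left out a library (up to 0.0662).

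Slc5a8, the sodium-coupled monocarboxylate carrier that takes up butyrate and lactate from the lumen, went the other way. It was measured at 18.3, 22.7 and 17.2 RPM (WT) and 46.7, 48.4 and 48.8 RPM (KO). The KO libraries lay close together and far above WT (log2 change 1.31, SE 0.13, limma adjusted p = 0.000634), a 2.47-fold level. Abcc5, an exporter of cyclic nucleotides and other organic anions, had 39.3, 35.2 and 27.8 RPM in WT and 61.5, 73.8 and 80.1 RPM in KO. Again every KO library lay above every WT library (log2 change 1.08, SE 0.17, limma adjusted p = 0.0027). Slc22a21 and Slc22a4, carriers of carnitine and of ergothioneine, lie 2.79 kb apart on chromosome 11 and both rose, by 1.60 and 0.56. Slc28a2, which takes up purine nucleosides, rose by 0.99, Slc17a4, an organic anion carrier of the intestine, by 0.54, and Slc23a3, an uncharacterised relative of the vitamin C carriers, by 1.40. Slc17a9, which loads ATP into vesicles, rose by 1.36, but KO replicate 3 at 3.36 RPM stood only just above the highest WT library at 3.13 RPM, and its limma adjusted p reached 0.0575 when single libraries were left out. The lower genes were Slc23a2, a vitamin C carrier (-0.66), Slc35b1, the ATP carrier of the endoplasmic reticulum (-0.63), and Slc19a2, a thiamine carrier (-0.40). Slc23a2 had a KO spread of 35.4 to 72.03 RPM under a lowest WT value of 74.9 RPM, and it lost the threshold in 5 of the 6 fits that left out a library, with a log2 change of -0.40 without KO replicate 1. With the length trend removed Slc23a2 and Slc19a2 lost it too, with log2 changes of -0.34 and -0.25 (limma adjusted p = 0.102 and 0.0833).

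All 5 genes of mitochondrial carriers were lower, where 55.4% of all listed genes with a mean of at least 18.5 RPM were. Log2 changes ran from -0.50 to -0.32, with a summed level of 76.9% of WT. With the length trend removed they were -0.67 for both Slc25a5 and Slc25a1, -0.56 for Slc25a45, -0.34 for Slc25a15 and -0.28 for Abcb10, so that Slc25a5 went from the smallest change of the 5 to the largest. Slc25a5, the exchanger of ADP and ATP, was measured at 1563, 1602 and 1719.6 RPM (WT) and 1368, 1275 and 1276 RPM (KO). Here KO replicate 1 was the nearest to WT, and the groups did not overlap (log2 change -0.32, SE 0.10, limma adjusted p = 0.0174), and its limma adjusted p reached 0.063 when single libraries were left out. Slc25a1, which exports citrate for lipid synthesis, had 740.1, 736 and 801 RPM in WT and 564, 544 and 593 RPM in KO. The 3 KO libraries lay close together below WT (log2 change -0.42, SE 0.10, limma adjusted p = 0.00778). Slc25a15, the ornithine carrier, Abcb10, an inner membrane transporter linked to haem synthesis, and Slc25a45 had log2 changes of -0.48, -0.42 and -0.50. Each of these 3 genes and Slc25a1 kept a limma adjusted p under 0.05 in all 6 fits that left out a library.

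Metal carriers were lower in 6 of 9 cases, with a median log2 change of -0.49 and no change as large as 1. Slc11a2, the carrier that takes up ferrous iron from the lumen and from endosomes, was measured at 790.4, 814 and 849 RPM (WT) and 458, 534 and 642 RPM (KO). All KO libraries lay below WT, with KO replicate 1 the lowest (log2 change -0.60, SE 0.14, limma adjusted p = 0.00859). Slc39a14, an importer of zinc, manganese and iron, had 561, 564 and 539.7 RPM in WT and 338, 398 and 455 RPM in KO. The KO libraries were ordered in the same way (log2 change -0.49, SE 0.13, limma adjusted p = 0.0119). Slc40a1, ferroportin, the only known iron exporter of the cell, had a log2 change of -0.50, so that the uptake and the exit carrier for iron were both lower. Slc30a10, which exports manganese, changed by -0.66, Slc41a2, a magnesium carrier, by -0.87, and Slc39a11, a zinc carrier, by -0.37. With the length trend removed the log2 changes were -0.39 for Slc30a10 and -0.29 for Slc39a14, both still past the threshold. The higher genes were Slc39a8, an importer of zinc and manganese (0.42), Slc48a1, which moves haem out of lysosomes (0.43), and Slc30a2, which loads zinc into vesicles (0.47). Of 14 genes of iron and zinc handling outside the transporters, 3 were in the table and all were lower. They were Cybrd1, the ferric reductase of the brush border (-0.46), Tfrc, the transferrin receptor (-0.60), and Hmox1, haem oxygenase (-0.85). Cybrd1 lost the threshold in 5 of the 6 fits that left out a library (limma adjusted p up to 0.116), with the replicate block (0.0729) and with the length trend removed (log2 change -0.24, limma adjusted p = 0.126), and its log2 change was -0.27 without KO replicate 1.

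Ion carriers and channels were lower in 6 of 9 cases, with a median log2 change of -0.54, which was -0.14 with the length trend removed. Clcn3, an endosomal chloride-proton exchanger, was measured at 330.0, 340.5 and 319 RPM (WT) and 191, 236 and 291 RPM (KO). KO replicate 3 was close to WT, and the change (log2 change -0.48, SE 0.16, limma adjusted p = 0.0242) fell to -0.08 (limma adjusted p = 0.41) with the length trend removed. Slc12a8, a member of the cation-chloride cotransporter family, was higher, at 141, 138 and 134 RPM in WT and 196, 185 and 160.2 RPM in KO. The groups did not overlap (log2 change 0.38, SE 0.11, limma adjusted p = 0.015). Slc20a1, a sodium-phosphate cotransporter found in most cells, fell most within the class. It was measured at 133, 119 and 119 RPM (WT) and 46.8, 58.6 and 72.03 RPM (KO), with no overlap between the groups (log2 change -1.08, SE 0.17, limma adjusted p = 0.00274). Slc34a2, the phosphate carrier of the brush border, went the other way with a log2 change of 0.47, and its limma adjusted p was 0.0509 once each library was centred on its median listed gene and up to 0.0715 when single libraries were left out.

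Slc9a3, the sodium-proton exchanger that absorbs sodium across the brush border, fell to 54.5% of WT (log2 change -0.89), and Slc9a4, a basolateral relative at 0.575 to 2.48 RPM in WT, rose to 4.67 to 5.82 RPM in KO (log2 change 1.72). Slc9a4 had 9 reads in WT replicate 2, and its log2 change was 1.08 without that library. Clcn5, another endosomal exchanger, and the potassium channel gene Kcnk10 had log2 changes of -0.54 and -0.64. With the length trend removed these were -0.14 for Clcn5 and -0.27 for Kcnk10, and both lost the threshold (limma adjusted p = 0.173 and 0.0544).

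Of the 3 aquaporins, 2 were higher. Aqp1 was measured at 288, 287 and 252 RPM (WT) and 451, 457 and 424 RPM (KO). The rise to 1.61-fold was even across the KO libraries (log2 change 0.69, SE 0.10, limma adjusted p = 0.00238), and per kilobase Aqp1 was the most abundant of the transporter genes that rose. Aqp8, a water channel of the gut epithelium, went from 2.25, 0.703 and 1.17 RPM in WT to no read in any KO library, at least 6.28-fold lower against the mean floor of 3 reads per library. Aqp7, which also passes glycerol, was at 0.777, 0.383 and 1.17 RPM in WT and 4.91, 2.26 and 1.96 RPM in KO. KO replicate 1 was the highest, and the lowest KO library was above the highest WT library (log2 change 1.83, SE 0.45, limma adjusted p = 0.00962). Aqp7 and Aqp8 rest on few reads, and with a pseudocount of 1 RPM the Aqp7 log2 change was 1.14 and the Aqp8 log2 change was -1.20 (-3.74 with 0.1 RPM).

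Among 6 lipid transporters 4 were lower and 2 higher, with a median log2 change of -0.42, which was -0.10 with the length trend removed. Abcd3, which brings branched and long chain acyl chains into peroxisomes, was measured at 509, 494 and 492 RPM (WT) and 298, 379 and 437 RPM (KO). The KO libraries were again spread, with KO replicate 3 nearest to WT (log2 change -0.44, SE 0.15, limma adjusted p = 0.0263), and the call was lost with the length trend removed (log2 change -0.29, limma adjusted p = 0.073). Without KO replicate 1 it was also -0.29. Slc27a2, a fatty acid carrier and acyl-CoA synthetase, had 207, 181 and 150.0 RPM in WT and 261, 266 and 231 RPM in KO. All KO libraries lay above WT (log2 change 0.50, SE 0.14, limma adjusted p = 0.015). Abca7 and Abca3, which move phospholipids, changed by -0.42 and -0.42, and each lost the threshold with the length trend removed (log2 changes -0.09 and -0.10, limma adjusted p = 0.379 and 0.252). Abca8b, another lipid transporter, rose from 3.96 to 5.22 RPM in WT to 15.2 to 16.3 RPM in KO (log2 change 1.75, limma adjusted p = 0.000219).

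The bile acid class held 1 gene, Slc10a2, the sodium-coupled carrier that reclaims bile acids in the ileum. It was measured at 21.6, 22.03 and 20.8 RPM (WT) and 37.03, 49.4 and 54.7 RPM (KO). The WT libraries were close together, and the lowest KO library stood well above them (log2 change 1.11, SE 0.16, limma adjusted p = 0.00215). The mean level in KO was 2.19 times that in WT. Of 6 other genes of bile acid handling 1 was in the table. Fgf15, the hormone that ileal cells release in response to bile acids, was measured at 4.27, 1.597 and 1.17 RPM in WT and 9.82, 12.8 and 5.04 RPM in KO (log2 change 2.04, SE 0.53, limma adjusted p = 0.011), low in all libraries but without overlap.

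The KO libraries had a common order in many of the lower genes, among transporters and in the table as a whole. Of the 43 lower transporter genes KO replicate 1 was the lowest KO library in 32 and KO replicate 3 the highest in 31, and both held in 25 (58.1%, against 59.6% of all 673 listed genes that were lower). Relative to the WT mean, the median log2 value of these genes was -0.77 in KO replicate 1, -0.59 in KO replicate 2 and -0.37 in KO replicate 3, against -0.73, -0.55 and -0.41 over all listed genes that were lower. Of the 23 higher transporter genes, KO replicate 1 was lowest and KO replicate 3 highest in 9 (39.1%), and the reverse held in 8. Of all 747 listed genes that were higher, the first order held in 124 (16.6%) and the reverse in 327. Most secretory cell markers were graded across the same libraries. In KO replicates 1, 2 and 3 the Paneth markers had median log2 values of 1.49, 1.10 and 0.68 relative to WT, the goblet markers 1.61, 0.97 and 0.62, and the enteroendocrine markers 1.26, 0.83 and 0.47, whereas the enterocyte markers had -0.63, -0.47 and -0.51 and the 2 stem cell markers 0.38, 0.48 and 0.56. The goblet list has 3 genes, and Muc2, the longest of them, ran the other way, at 563, 578 and 594 RPM in KO replicates 1, 2 and 3. The secretory markers have short transcripts, with medians of the longest transcript of 1068 bases for the Paneth, 493 for the goblet and 1021 for the enteroendocrine list, and the ratio of KO replicate 1 to KO replicate 3 went with length too. The parts of cell makeup and of transcript length in the order of the KO libraries were not tested. Across KO libraries the 43 lower genes had a median coefficient of variation of 14.8%, and across WT libraries 6.42%, against 12.7% and 6.00% over all listed genes that were lower. For the 23 higher genes these values were 10.1% and 10.8%, against 14.1% and 11.2% over all listed genes that were higher. The ratio of KO replicate 1 to KO replicate 3 went down with transcript length across genes, with a Spearman rho of -0.498 over the 66 transporter genes and -0.494 over 1396 listed genes, all read in the same pair of libraries. The log2 change between genotypes had a rho of -0.10 with length over the transporter genes and -0.22 over the listed genes. Transporter transcripts were long (median of the longest transcript 4164 bases, against 3106 bases over the table). With the length trend removed 27 of the 43 lower genes and all 23 higher genes kept a limma adjusted p under 0.05, and none changed sign. Leaving out 1 library at a time, 48 of the 66 genes passed the threshold in all 6 fits. The other 18, with highest limma adjusted p-values from 0.0509 (Abca7) to 0.0972 (Slc23a2), included the lower genes Slc5a1, Slc7a1, Slc6a6, Slc16a1, Slc16a6, Slc19a2, Slc23a2, Slc25a5, Slc40a1, Clcn3, Abca7 and Abcd3 and the higher genes Slc12a8, Slc17a9, Slc27a2 and Slc34a2. Leaving out KO replicate 2 lost the most genes (15) and leaving out KO replicate 3 lost none. Such counts over all listed genes are not given here, so these counts show nothing particular to transporters.

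Few transporter genes were neighbours. Besides Slc22a21 and Slc22a4, the pairs within 1e+06 bases were Slc5a11 and Aqp8 on chromosome 7 (189 kb apart, both lower), Slc6a19 and Slc9a3 on chromosome 13 (417 kb, both lower) and Slc16a6 and Abca8b on chromosome 11 (459 kb, in opposite directions). All 66 genes matched protein-coding genes of GENCODE M21, and exons of 16 overlap those of a gene on the other strand. The libraries mark strand, but whether the counting used it is not given in the sources used here, so reads of such partners may not be separated. Slc16a6 also overlaps Gm25540 on its own strand.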

How the data were processed

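Poly(A)-selected, directional libraries of 6 organoid samples were read as 50 bp paired ends. Per the labels and the study's methods, the authors trimmed reads with Trim Galore (0.4.2), mapped them to GRCm38 with HISAT2 (2.0.3), kept unique alignments, counted them over exons of merged transcripts in SeqMonk and tested the raw counts with DESeq2. The deposited table holds only genes that passed, as RPM on a linear scale, scaled to library depth by the authors. Its other statistics column holds the authors' corrected p-values and was not used. Values in each library were whole multiples of 1 step (100% within 0.05 reads), which gave the depths and the read counts. No count test was run on these preselected genes.

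Groups came from sample titles. RPM was fitted as log2(RPM + 0.1) with limma 3.58.1 in R 4.3.3, two-sided, without covariates, with Benjamini-Hochberg adjustment over all 1420 genes and a threshold of 0.05. Log2 changes on this scale understate those of low genes. The script was tested on simulated data. Levels between genes were compared per kilobase of merged GENCODE M21 exons. The table's symbol for the measured region was used, since the feature named beside it differed for 9 transporter genes. Values in every library are given where the log2 change was 1 or more in size and the mean reached the 25th percentile of the table (18.5 RPM), and for the 2 genes of each class with the highest mean. The members, the 6 partner lists and the 6 marker lists were chosen with earlier results of these data known. All 10 listed transcription factors of the intestine are outside the table and were not analysed here. Alternatives were a replicate block, a pseudocount of 1, a filter on low means, centring on the median listed gene, an intensity trend, removal of a loess trend with transcript length (span 0.5), a threshold of 0.01, and leaving out each library. Some genes are counted but not reported by name here. Floors of 3 reads cover counting error only.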

Additional observations from a re-analysis of the deposited data

How the results depend on the processing

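No transporter gene changed direction under any of the alternatives run. Over 780 gene values under alternatives, 710 kept their side of the threshold and 70 lost it, in 22 genes, and 48 of 66 genes passed in all 6 fits that left out a library. Leaving out WT replicates 1, 2 and 3 lost 10, 12 and 10 genes, and leaving out KO replicates 1, 2 and 3 lost 4, 15 and 0. No share of all listed genes is given beside these losses, so they show nothing particular to transporters. The count of higher genes was 23, and fell to 15 when genes with a mean under 18.5 RPM were left out, where fewer genes were tested, and to 15 at an adjusted p under 0.01. The count of lower genes was 43, and fell to 27 with the length trend removed and to 25 at an adjusted p under 0.01. For neither direction is the share of all listed genes at 0.01 given here. With the filter, genes past a log2 change of 1 numbered 4 higher and 4 lower. The median of the organic acid, vitamin and nucleoside class reversed from 0.54 to -0.35 with the filter, the only reversal among 108 class medians under alternatives, of which 8 others moved by more than their spread. Leaving out one library gave 19 to 23 higher and 32 to 43 lower genes, 9 to 12 higher and 5 to 10 lower by at least 1, 4 to 6 higher and 13 to 15 lower partner genes, and a Smarcad1 log2 change of -2.20 to -2.09. Centring each library shifted log2 changes by -0.09 and lost Slc34a2.

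Deviations of same-numbered WT and KO libraries from their group means had correlations of -0.0839, 0.0905 and 0.0613. With 3 libraries per group and the source mice not given, these values cannot settle whether the samples were paired. With the replicate block, 23 genes were higher and 41 lower, with 11 higher and 7 lower by at least 1, and 6 partner genes were higher and 13 lower. Slc5a1 and Slc6a6 lost the threshold in that fit. The cause of these losses was not tested. Depth limits the genes listed at a few reads, Slc15a2, Aqp7, Aqp8 and Slc9a4.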
